A study of Mus with 15 samples.

Results

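The long noncoding RNAs (lncRNAs) that were abundant in mouse adipose tissue and in fat grafts are described here. They are the rows that the deposited gene matrix types as lncRNA and whose mean over all 15 samples was at least 10 TPM (transcripts per 1e6, a level corrected for transcript length). The rule took 89 of 9959 lncRNA rows in a matrix of 55471 genes. Members were thus chosen by their measured mean TPM, and their abundance is a description and is not tested.

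All mice were wild-type C57BL/6 at an age of 7 weeks, per the labels. The labels name 3 groups of 5 samples, which are adipose tissue control, fat graft at day 3 and fat graft at day 7. The fat depot, the graft site and the host are not given in the sources used here. Whether each sample is an animal of its own is not stated in the labels, so p-values reflect only how these samples spread, part of which may be technical.

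Long noncoding RNAs are transcripts that are not translated into a known protein. Some build nuclear bodies, some act on neighbouring genes from the place where they are made, and many are processed, with small nucleolar RNAs (snoRNAs) or microRNAs cut from their introns or exons. Imprinted lncRNAs are expressed from the maternal or the paternal chromosome alone, and in many tissues they are highest before birth. In fat, several lncRNAs are known from adipocyte differentiation and others from the macrophages and lymphocytes that the tissue holds.

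Library totals were 17.1 M to 32.0 M estimated counts (M, mega). The mitochondrial genome took 9.01% to 14.9% of the counts in controls and 2.17% to 4.02% in grafts. All 12 adipocyte markers fell and all 12 macrophage markers rose at both times, and the 10 B cell and lymph node markers fell at both times. The score of a marker list is its mean log2(CPM + 1) in a sample, where CPM is the scaled count per 1e6 counts. The B cell and lymph node score was 7.13 to 7.79 in controls 1, 2, 3 and 5, 3.74 in control 4 and 0.963 to 2.10 in the grafts. The adipocyte score was 8.89 to 10.6 in controls, 5.76 to 7.23 at day 3 and 4.46 to 5.35 at day 7, and the macrophage score was 5.59 to 7.47, 8.27 to 9.21 and 8.64 to 9.36. In such whole-tissue samples fewer cells of a type and less RNA per cell cannot be told apart.

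Members with very different levels made up the set. A mean above 100 TPM was reached by 10 members, 14 were at 50 to 100, 21 at 20 to 50 and 44 at 10 to 20 TPM. Gm42418, a predicted gene with ribosomal RNA-like sequence, led with 2349 TPM, followed by Gm10076 (791 TPM), Neat1 (716 TPM), Malat1 (551 TPM), Gas5 (435.0 TPM), Meg3 (227 TPM), Ifi30 (208 TPM), Rian (194 TPM), H19 (153 TPM) and Snhg1 (104 TPM). Ifi30, which encodes a lysosomal thiol reductase, is a known protein gene that the matrix types as lncRNA. The members summed to 3774 to 6450 TPM in controls, 7890 to 9847 TPM at day 3 and 8447 to 10934 TPM at day 7. Their share of all lncRNA TPM was 66.4% to 73.1% in controls and 79.6% to 84.0% in grafts. The rule averaged over 5 controls and 10 grafts, which favours members high in grafts, so these sums and shares are a description of the selected set.

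Several members crossed the 10 TPM line between groups. The group mean was at least 10 TPM in all 3 groups for 55 members. It was so only in both grafts for 14, among them Mir100hg, Dubr, Morrbid, Mirg, F630028O10Rik, Airn and AI427809. It was so in controls alone for 10, which were A530053G22Rik, 2010016I18Rik, Gm43305, Gm19951, 2610016A17Rik, A930005H10Rik, Gm44386, Gm15675, Peg13 and 2010320M18Rik. The other 10 had other mixes of groups. Over the comparisons, 24 members were called higher and 27 lower at both graft times with no call between them, and 18 were called in none. Both graft times are compared with the same controls, and these patterns were not counted over all tested genes. Nothing about the members is read from these counts.

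**Figure D1:**
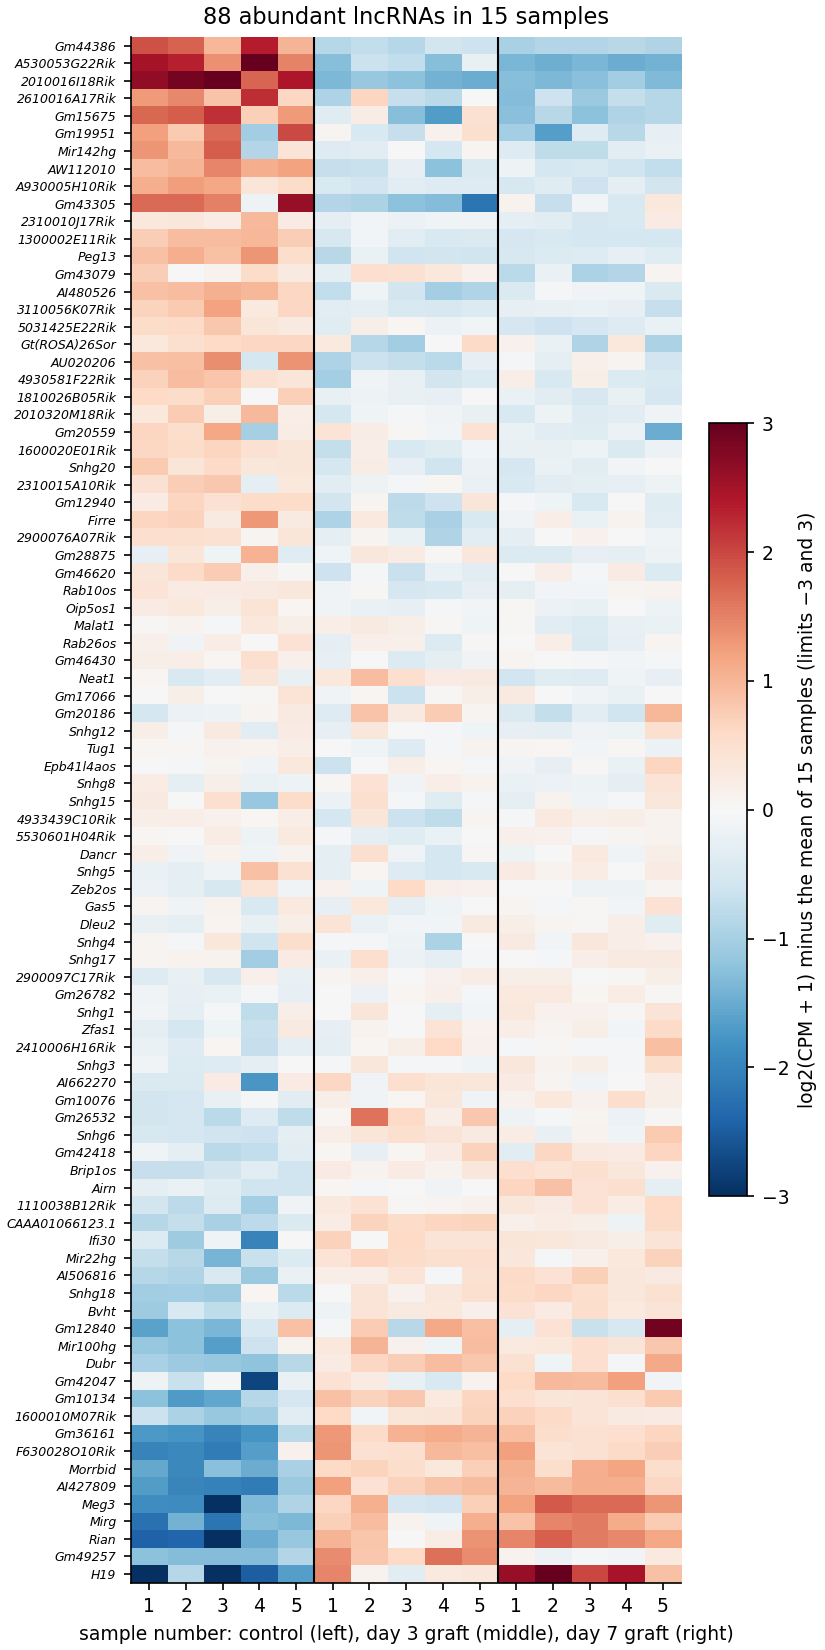
Heat map of the 88 tested members (rows, ordered by the day 7 change) in 15 samples (columns, 5 per group). Colour is log2(CPM + 1) minus the mean of the row over all samples, with 7 values beyond the colour limits of −3 and 3. The upper rows are red in the 5 controls and blue in the 10 grafts, the lower rows are the reverse, and the middle rows differ little between the groups.

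Of 88 tested members 28 (31.8%) rose and 31 (35.2%) fell at day 3 against control, where 30.1% of all 16051 tested genes rose and 30.3% fell. At day 7 against control 31 members (35.2%) rose and 32 (36.4%) fell, beside 32.2% and 28.4% of all tested genes. Members passed the abundance rule through the groups where they were high, 10 of them through controls alone and 14 through grafts alone, so nothing about the members is read from these shares. The median log2 change of the members was -0.05 at day 3 and -0.01 at day 7, beside -0.02 and 0.03 for all tested genes. Calls are those of limma with a Benjamini-Hochberg adjusted p below 0.05. Both comparisons use the same 5 controls, and each is given with its own values.

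The other 959 tested lncRNAs, which are less abundant, had medians of -0.55 at day 3 and -0.45 at day 7. Of these, 185 (19.3%) rose and 395 (41.2%) fell at day 3, and 222 (23.1%) rose and 354 (36.9%) fell at day 7. The abundance rule favours members that are high in any group, so this contrast is a description. The unit bears on the counts too. On log2(TPM + 1) the median change of all genes was 0.22 at day 3 and 0.33 at day 7, and genes that rose were 68.0% and 74.1% of the called genes, in place of 49.9% and 53.1%. On that scale 39 members rose and 17 fell at day 3, and 41 rose and 18 fell at day 7.

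Between the graft times few members passed the test. Neat1 and Gm49257 fell from day 3 to day 7 (2 of 88, beside 1.71% of all tested genes). By limma 0 members rose, beside 3.18% of all tested genes. At an unadjusted p under 0.05, 9 members were higher and 10 lower, and limma-trend on log2(CPM + 1) also gave 0 higher and 2 lower. Voom with sample quality weights gave 15 higher and 11 lower, and a fit of the 2 graft groups alone gave 4 higher and 3 lower. The counts depended on single libraries: without control 4 they were 3 higher and 4 lower, without day 3 graft 1 they were 1 and 4, without day 3 graft 2 they were 2 and 2, without day 7 graft 2 they were 0 and 0, and without day 7 graft 5 they were 2 and 5.

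Neat1 was the nuclear-body RNA that changed at day 3. It is the architectural RNA of paraspeckles, nuclear bodies that form around it and that grow under many kinds of stress. Its gene lies at chr19:5824708-5845478 (mm10, minus strand). The counts are per gene and from polyadenylated RNA, so isoforms of Neat1 are not told apart, and paraspeckles were not measured. Neat1 was at 1671, 1178, 1304, 2091 and 1380 CPM in controls 1 to 5, 2013, 3074, 2297, 1904 and 1931 in day 3 grafts 1 to 5 and 1080, 1261, 1229, 1489 and 1367 in day 7 grafts 1 to 5. All day 3 grafts lay above 4 of the 5 controls, and the day 3 and day 7 samples did not overlap. Neat1 rose at day 3 (0.57 ± 0.18, adjusted p = 0.0116), did not pass at day 7 (-0.22 ± 0.17, adjusted p = 0.281) and fell from day 3 to day 7 (-0.78 ± 0.18, adjusted p = 0.0222). The fall between graft times was not called without day 3 graft 3 or without day 7 graft 1, 2 or 3 (adjusted p = 0.0567, 0.0616, 0.056 and 0.0568).

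Malat1, an RNA of nuclear speckles on the same chromosome at chr19:5795690-5802672, moved otherwise. It was at 1463, 1535, 1397, 1792 and 1618 CPM in controls 1 to 5, 1635, 1734, 1604, 1473 and 1298 in day 3 grafts 1 to 5 and 1470, 1126, 1079, 1217 and 1251 in day 7 grafts 1 to 5. Controls and day 3 grafts overlapped widely, and 4 of the 5 day 7 grafts lay below every control. Malat1 fell at day 7 (-0.35 ± 0.12, adjusted p = 0.0203) and did not pass at day 3 (-0.01 ± 0.12, adjusted p = 0.941) or between graft times (-0.33 ± 0.12, adjusted p = 0.128). On log2(TPM + 1) its change was 0.39 at day 3 (adjusted p = 0.0281) and 0.08 at day 7 (adjusted p = 0.662), beside the upward shift of all genes on that scale. The day 7 call also ended with library totals (adjusted p = 0.0602) and without day 7 graft 2 or 3 (adjusted p = 0.0506 and 0.0563).

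The ratio of both transcripts within a sample does not depend on library scaling. The ratio of Neat1 to Malat1 TPM had a median of 1.06 in controls (0.88 to 1.39), 1.47 at day 3 (1.26 to 1.97) and 1.3 at day 7 (0.808 to 1.34). The ratio was chosen after its values were seen, so it is a description and no test of it is given. All day 3 values but that of graft 1 lay above every control, and day 7 lay within the control range or below it. Of 15 genes for paraspeckle proteins, the partners of Neat1, 3 rose and 3 fell at day 3. At day 7, 3 rose and 2 fell, and the medians were 0.01 and 0.12. Among all tested genes 30.1% rose and 30.3% fell at day 3, and 32.2% and 28.4% did at day 7. Cpsf6 had the lowest changes of the paraspeckle genes listed here (-0.65 and -0.57, adjusted p = 0.00242 and 0.00604).

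**Figure D2:**
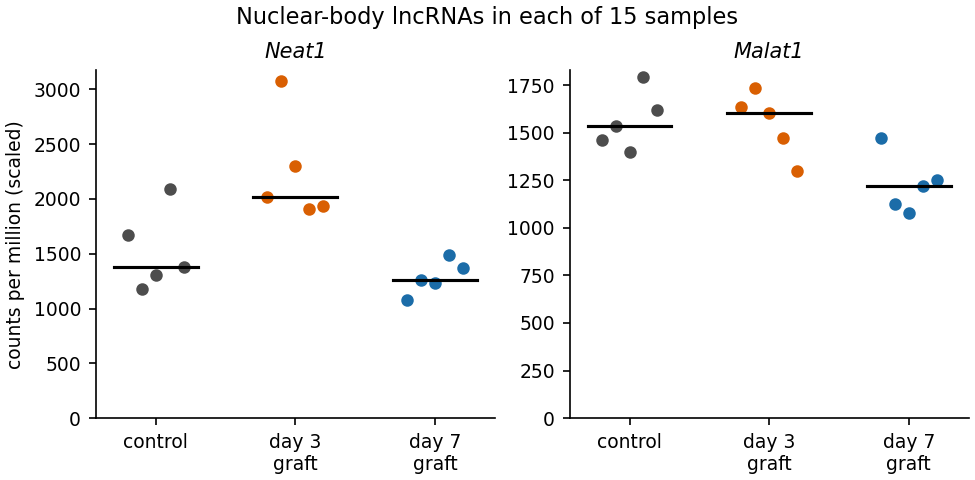
Scaled CPM (vertical axes, from 0) of Neat1 and Malat1 in the 5 samples of each group; points are samples and black lines are group medians. Day 3 grafts are at 1904 to 3074 for Neat1 and day 7 grafts at 1080 to 1489, without overlap, while Malat1 overlaps between all groups.

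Meg3, Rian, Mirg and H19, 4 imprinted lncRNAs, were among the members that rose most. Meg3, Rian and Mirg are maternally expressed and lie one after the other on the plus strand of chromosome 12 at chr12:109541001-109571726, chr12:109603808-109661716 and chr12:109729764-109749460, in the domain between Dlk1 and Dio3. The matrix places 13 snoRNA genes inside Rian and 14 microRNA genes inside Mirg. H19, maternally expressed next to the growth factor gene Igf2 and the host of Mir675, lies at chr7:142575529-142578143 on the minus strand.

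Meg3 was at 35.4, 34.8, 14.7, 52.1 and 69.7 CPM in controls 1 to 5, 202, 275, 91.9, 87.5 and 218 in day 3 grafts 1 to 5 and 306, 471, 432, 428 and 330.3 in day 7 grafts 1 to 5. Every graft exceeded every control, and the day 7 grafts exceeded every day 3 graft. Meg3 rose by 2.10 ± 0.39 at day 3 (4.29-fold, adjusted p = 0.000327) and by 3.40 ± 0.41 at day 7 (10.6-fold, adjusted p = 7.53e-06). The difference between graft times did not pass (1.3 ± 0.42, adjusted p = 0.0897), although day 3 and day 7 samples did not overlap. It was called without control 3 (1.3, adjusted p = 0.041).

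Rian was at 28.2, 29.2, 13.3, 54.4 and 70.1 CPM in controls 1 to 5, 319, 277, 158, 183 and 397 in day 3 grafts 1 to 5 and 435, 544, 460.1, 425 and 349.6 in day 7 grafts 1 to 5. Controls and grafts did not overlap, whereas day 3 and day 7 did. It rose 7.49-fold at day 3 (2.91 ± 0.38, adjusted p = 1.61e-05) and 13-fold at day 7 (3.70 ± 0.39, adjusted p = 2.44e-06). Mirg, the microRNA-bearing end of the domain, was at 0.629, 1.86, 0.678, 2.15 and 1.99 CPM in controls 1 to 5, 11.6, 13.5, 7.296, 5.98 and 15.4 in day 3 grafts 1 to 5 and 12.9, 20.2, 21.7, 15.5 and 11.9 in day 7 grafts 1 to 5. Every graft lay above every control, a rise of 7.75-fold at day 3 (2.95 ± 0.46, adjusted p = 8.03e-05) and 12.4-fold at day 7 (3.63 ± 0.45, adjusted p = 9.55e-06).

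The proportion of the 3 transcripts of the domain was compared within samples, in ratios chosen after their values were seen. The ratio of Rian to Meg3 TPM had a median of 0.523 in controls (0.411 to 0.673), 1.15 at day 3 (0.67 to 1.38) and 0.773 at day 7 (0.72 to 1.1). All day 7 values lay above every control, and so did all day 3 values but that of graft 2. Mirg to Meg3 had medians of 0.0519 (0.0223 to 0.077), 0.0993 (0.0657 to 0.131) and 0.0701 (0.0491 to 0.0808), and all groups overlapped. These TPM values also served the abundance rule, so the ratios are a description and no test of them is given.

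H19 rose most of the 4. It was at 3.09, 44.6, 5.11, 13.9 and 25.5 CPM in controls 1 to 5, 227, 88.4, 65.8, 101 and 104 in day 3 grafts 1 to 5 and 511, 805, 332, 458 and 152 in day 7 grafts 1 to 5. All grafts lay above all controls, and day 7 graft 5 lay below day 3 graft 1, the highest of its group, so the graft times overlapped. H19 rose 9.03-fold at day 3 (3.18 ± 0.60, adjusted p = 0.000397) and 33.3-fold at day 7 (5.06 ± 0.64, adjusted p = 1.09e-05). From day 3 to day 7 its change was 1.88 ± 0.55, adjusted p = 0.0639, which was called without day 3 graft 1 (2.16, adjusted p = 0.0409), day 7 graft 5 (2.23, adjusted p = 0.0242), control 2 (1.88, adjusted p = 0.0456) or control 4 (1.86, adjusted p = 0.0465).

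Airn, a paternally expressed RNA made from the opposite strand of Igf2r and known to silence Igf2r in cis, was at 5.34, 5.69, 4.97, 4.08 and 4.03 CPM in controls 1 to 5, 6.92, 6.33, 6.58, 6.16 and 6.74 in day 3 grafts 1 to 5 and 10.9, 13.1, 9.298, 9.73 and 5.38 in day 7 grafts 1 to 5. The day 3 grafts lay just above all controls, and 4 of the 5 day 7 grafts were higher still, with day 7 graft 5 among the controls. Airn rose at day 7 (0.97 ± 0.22, adjusted p = 0.00154) and did not pass at day 3 (0.46 ± 0.23, adjusted p = 0.0992), a change that was called when day 7 graft 5 was left out (0.46, adjusted p = 0.0173). Igf2r itself was called higher at both times (1.28 ± 0.18, adjusted p = 2.78e-05, and 1.79 ± 0.18, adjusted p = 1.76e-06). Peg13, a paternally expressed RNA inside an intron of Trappc9, went down. It was at 60.1, 69.4, 59.96, 81.95 and 46.9 CPM in controls 1 to 5, 17.6, 28.2, 20.96, 21.9 and 21.01 in day 3 grafts 1 to 5 and 22.8, 24.1, 24.3, 27.1 and 24.7 in day 7 grafts 1 to 5. Every graft lay below every control, with changes of -1.53 ± 0.15, adjusted p = 1.05e-06 at day 3 and -1.35 ± 0.14, adjusted p = 2.22e-06 at day 7. Peg13 lies on the strand of Trappc9, which also fell (-0.77 and -0.87, adjusted p = 0.0014 and 0.000533), and how reads of the pair were split is uncertain.

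Of the 8 tested imprinted lncRNAs 4 rose and 3 fell at day 3, and 5 rose and 3 fell at day 7, beside 30.1% and 30.3% of all tested genes at day 3 and 32.2% and 28.4% at day 7 that rose and fell. Mirg and Airn reached a group mean of 10 TPM in grafts alone and Peg13 in controls alone, and Meg3, Rian and Mirg lie in the same domain. Nothing about imprinted lncRNAs is therefore read from these counts. The 2 that are not members, Kcnq1ot1 and Snhg14, fell at both times. Kcnq1ot1 changed by -1.17 and -0.65 (adjusted p = 9.71e-05 and 0.00465) and Snhg14 by -1.78 and -1.74 (adjusted p = 0.000215 and 0.00022).

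Imprinted protein-coding genes around these RNAs were measured in the same fit. Of 18 tested, 7 rose and 3 fell at day 3 and 10 rose and 3 fell at day 7, with medians of 0.13 and 1.09. From day 3 to day 7, 4 rose. Among all tested genes 30.1% rose and 30.3% fell at day 3, 32.2% and 28.4% did at day 7, and 3.18% rose between graft times. Dlk1, the paternally expressed gene at the far end of the Meg3 domain, was at 0.0866 CPM in controls, 0.432 at day 3 and 6.75 at day 7 (5.78 ± 1.04 at day 7, adjusted p = 0.000246). Dio3, the thyroid hormone deiodinase at its other end, was at 0.0827, 0.612 and 3.55 CPM and rose at both times (3.01 ± 0.85, adjusted p = 0.00684, and 5.51 ± 0.78, adjusted p = 2.95e-05). With controls this near 0, the sizes of the Dlk1 and Dio3 changes depend on the offset that voom adds to low counts. Igf2 did not pass (-1.23 ± 1.18, adjusted p = 0.379, and 0.97 ± 0.96, adjusted p = 0.394). Mest rose by 4.82 and 5.23 and Grb10 by 1.66 and 2.15 (adjusted p of 1.04e-05 and 4.86e-06, and 3.44e-05 and 4.05e-06), while Nnat fell (-2.40 and -3.16, adjusted p = 0.013 and 0.00362).

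The fibroblast and progenitor markers rose beside these RNAs, 6 of 9 at day 3 and 7 of 9 at day 7, when 1 fell, with a score of 7.06 to 8.96 in controls, 8.85 to 10.2 at day 3 and 9.94 to 10.4 at day 7. The proliferation score was 2.74 to 5.198, 5.01 to 5.97 and 5.61 to 6.80. The skeletal muscle score was 1.84, 8.56, 3.96, 5.02 and 5.47 in controls 1 to 5. It was 5.07, 0.366, 0.33, 0.304 and 0.746 in day 3 grafts 1 to 5 and 4.15, 1.045, 5.15, 1.315 and 0.218 in day 7 grafts 1 to 5. Control 2 and day 3 graft 1 had the highest muscle score and the highest H19 value of their groups. At day 7 graft 3 had the highest score and graft 2 the highest H19 value. The part of any of these scores in the rise of the imprinted lncRNAs was not tested.

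**Figure D3:**
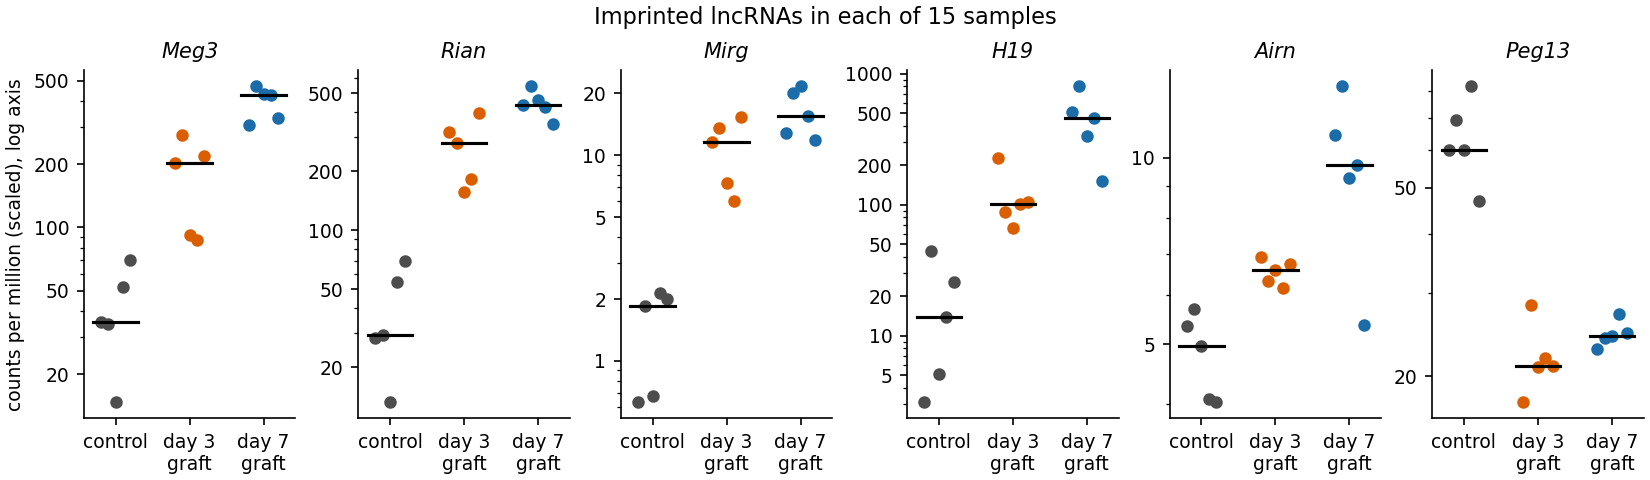
Scaled CPM (vertical log axes, each with its own range) of 6 imprinted lncRNAs in the 5 samples of each group; points are samples and black lines are group medians. Meg3, Rian, Mirg and H19 are higher in all 10 grafts than in the 5 controls, Airn is highest in 4 of the 5 day 7 grafts, and Peg13 is lower in all grafts.

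A snoRNA gene lay inside, and on the strand of, 19 of the 89 members (21.3%) and 12 of the 959 other tested lncRNAs (1.25%). SnoRNAs guide the chemical modification of ribosomal RNA and are cut from the introns of such hosts. The spliced host RNA that remains is the product counted here, and in many hosts it is removed by nonsense-mediated decay. At day 3, 5 of the 19 rose and 1 fell, with a median of 0.20, and at day 7, 8 rose and 11 were not called, with a median of 0.27. Of all tested genes 30.1% rose and 30.3% fell at day 3, and 32.2% and 28.4% did at day 7.

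Rian aside, Snhg18, AI506816, 1110038B12Rik and Snhg6 rose at both times. Snhg18 was at 11.9, 11.9, 11.6, 26.6 and 14.1 CPM in controls 1 to 5, 25.8, 33.7, 27.8, 32.4 and 35.8 in day 3 grafts 1 to 5 and 37.7, 39.6, 36.6, 32.5 and 35.3 in day 7 grafts 1 to 5. Control 4 lay above day 3 graft 1, and all other controls were below every graft (1.08 ± 0.19, adjusted p = 0.000202 at day 3 and 1.31 ± 0.19, adjusted p = 3.38e-05 at day 7). Snhg6 was at 8.38, 8.19, 7.64, 7.53 and 9.85 CPM in controls 1 to 5, 14.1, 15.7, 17.2, 16.1 and 14.8 in day 3 grafts 1 to 5 and 14.3, 10.2, 13.1, 11.1 and 21.4 in day 7 grafts 1 to 5. No graft was as low as the highest control, and the changes were 0.91 ± 0.19, adjusted p = 0.000706 and 0.71 ± 0.19, adjusted p = 0.00428. AI506816 changed by 0.95 ± 0.17, adjusted p = 0.000209 and 1.18 ± 0.17, adjusted p = 3.58e-05, and 1110038B12Rik by 0.83 ± 0.17, adjusted p = 0.000658 and 1.02 ± 0.17, adjusted p = 0.000102, again without overlap.

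Gas5, named for its rise in growth-arrested cells and with 10 snoRNA genes inside, was the most abundant host. It was at 138, 121, 141, 95.6 and 161 CPM in controls 1 to 5, 111, 162, 108, 119 and 131 in day 3 grafts 1 to 5 and 138, 126, 133, 124 and 177 in day 7 grafts 1 to 5. The 3 groups overlapped, with the lowest value in control 4 and the highest in day 7 graft 5, and no change passed (-0.06 ± 0.15, adjusted p = 0.763 and 0.10 ± 0.15, adjusted p = 0.604). Snhg1 and Zfas1 rose at day 7 alone by small amounts. Snhg1 changed by 0.20 ± 0.16, adjusted p = 0.317 at day 3 and 0.40 ± 0.16, adjusted p = 0.0448 at day 7, and Zfas1 by 0.36 ± 0.18, adjusted p = 0.0955 and 0.48 ± 0.18, adjusted p = 0.0303. The Snhg1 call ended with other scalings and without any of 10 single samples, control 4 among them (0.19, adjusted p = 0.208), and that of Zfas1 without control 1, 2 or 4 or day 7 graft 1 or 5. Snhg3, which starts 81 bp from Rcc1 on the same strand, rose at day 7 (0.51 ± 0.15, adjusted p = 0.00982), and the split of its reads from those of Rcc1 is uncertain.

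Snhg5 was the host that fell at day 3 (-0.49 ± 0.20, adjusted p = 0.0485). It was at 21.5, 20.6, 22.8, 46.6 and 34.96 CPM in controls 1 to 5, 20.7, 26.2, 18.9, 17.03 and 18 in day 3 grafts 1 to 5 and 30.01, 27.2, 29.2, 25.3 and 29.9 in day 7 grafts 1 to 5. Control 4 and control 5 were the high values, the other controls lay within the range of the day 3 grafts, and without control 4 the change was -0.33, adjusted p = 0.0792. The call ended in 19 of 27 alternatives, with -0.11, adjusted p = 0.602 on log2(TPM + 1). The remaining hosts, 2410006H16Rik, Snhg12, Rab26os, Snhg8, Snhg17, Snhg15, Epb41l4aos, Snhg4 and Dancr, were not called in any comparison. Their changes lay between -0.35 and 0.49, and those of Rab26os, with 497 bp the shortest, were -0.31 ± 0.23, adjusted p = 0.255 and -0.33 ± 0.23, adjusted p = 0.226. Snhg20, in which the matrix places no snoRNA gene, fell at both times (-0.86 ± 0.18, adjusted p = 0.00103 and -0.82 ± 0.18, adjusted p = 0.00133).

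A second list, set by name, held 22 tested snoRNA host lncRNAs, 18 of them members. It leaves out AI506816 and 1110038B12Rik, which rose at both times, and Rab26os. It includes Snhg20 and 1810026B05Rik, which fell at both times and in which the matrix places no snoRNA gene. Of this list 3 rose and 5 fell at day 3 and 6 rose and 4 fell at day 7, with medians of -0.07 and 0.05. The difference from the counts above thus rests partly on which genes are listed. Genes that make or remove these products were measured beside them. Of 8 snoRNP genes, whose proteins package snoRNAs, 3 rose and 2 fell at day 3, and 2 rose and 2 fell at day 7, with a median of 0.13 at both times, shares near those of all tested genes (30.1% and 30.3% at day 3, 32.2% and 28.4% at day 7). Nop58, a core protein of the box C/D particles, was called higher (0.53 ± 0.20 and 0.71 ± 0.20, adjusted p = 0.0293 and 0.00598), and Dkc1, the pseudouridine synthase of the box H/ACA particles, was called lower (-0.71 ± 0.14 and -0.52 ± 0.14, adjusted p = 0.000486 and 0.00472). Of 10 nonsense-mediated decay genes 1 rose and 2 fell at day 3 and 3 fell at day 7, with Upf3b lowest (-0.89 and -0.74, adjusted p = 1.6e-05 and 6.46e-05). Ribosomal protein genes carry a terminal oligopyrimidine start, like several of the hosts. In a list of such genes that also holds Rack1, Eef2 and Eef1b2, 16 of 26 rose at day 3 and 12 of 26 at day 7, with medians of 0.36 and 0.32.

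**Figure D4:**
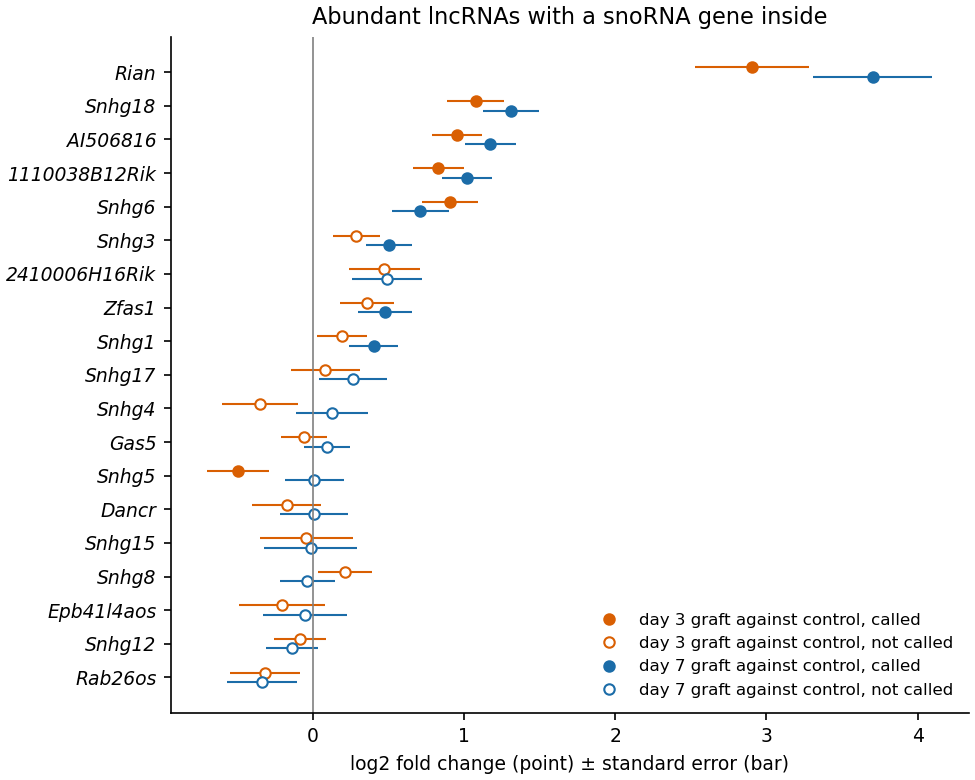
Log2 fold changes (points) with standard errors (bars) of the 19 members with a snoRNA gene inside, at day 3 (orange) and day 7 (blue) against the same 5 controls; filled points passed an adjusted p under 0.05. Rian stands at 2.91 and 3.70, Snhg18, AI506816, 1110038B12Rik and Snhg6 lie between 0.71 and 1.31, and the other 14 lie between -0.49 and 0.51.

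A microRNA gene lay inside 12 members (13.5%), beside 26 of the 959 other tested lncRNAs (2.71%). At both times 7 of the 12 rose, and 2 fell at day 3 and 3 at day 7, beside 30.1% and 30.3% of all tested genes at day 3 and 32.2% and 28.4% at day 7 that rose and fell. Meg3, Rian, Mirg and H19 are 4 of those that rose, and the others were Mir22hg, Mir100hg and F630028O10Rik. Mirg, Mir100hg and F630028O10Rik reached a group mean of 10 TPM in grafts alone, and Meg3, Rian and Mirg lie in the same domain. Nothing about microRNA hosts is therefore read from these counts. The values are those of the host RNAs, and mature microRNAs were not analysed here. In a list of 19 tested microRNA host lncRNAs, 7 of them members, 7 rose and 4 fell at day 3 and 8 rose and 3 fell at day 7.

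F630028O10Rik, at chrX:96239926-96243636, holds Mir223, the microRNA gene of granulocytes and monocytes. It was at 4.82, 5.11, 4.48, 6.44 and 24.6 CPM in controls 1 to 5, 57.9, 31.4, 32.01, 44.7 and 42.97 in day 3 grafts 1 to 5 and 54.3, 30.01, 31.3, 34 and 37.9 in day 7 grafts 1 to 5. Control 5 stood far above the other controls and still below every graft, and the rise was 5.70-fold at day 3 (2.51 ± 0.37, adjusted p = 4.33e-05) and 5.12-fold at day 7 (2.36 ± 0.37, adjusted p = 7.25e-05). The neutrophil score, at 1.28 to 1.68 in controls 1 to 4, 3.68 in control 5 and 2.34 to 4.95 in the grafts, was also highest in control 5 among the controls, and its part was not tested. Mir22hg, host of Mir22, was at 28.2, 26.01, 17.3, 29.5 and 35.1 CPM in controls 1 to 5, 62.7, 74.5, 70.1, 66.1 and 67.2 in day 3 grafts 1 to 5 and 60.2, 45.7, 52.9, 58.7 and 76.7 in day 7 grafts 1 to 5. Its groups did not overlap between controls and grafts (1.36 ± 0.17, adjusted p = 1.02e-05 and 1.13 ± 0.17, adjusted p = 4.7e-05). Mir100hg, host of Mirlet7a-2, Mir100 and Mir125b-1, was at 16.9, 15.8, 11.5, 24.6 and 41.3 CPM in controls 1 to 5, 47.8, 78.3, 42.1, 34.7 and 73.2 in day 3 grafts 1 to 5 and 47.3, 47.9, 54.3, 50.1 and 67.3 in day 7 grafts 1 to 5. Control 5 reached into the day 3 range, and the changes were 1.39 ± 0.30, adjusted p = 0.00109 and 1.40 ± 0.30, adjusted p = 0.00101.

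Mir142hg, host of the blood-cell microRNA gene Mir142, had the reverse course. It was at 5.13, 3.77, 7.55, 0.337 and 2.18 CPM in controls 1 to 5, 0.8803, 0.925, 1.43, 0.684 and 1.598 in day 3 grafts 1 to 5 and 0.861, 0.433, 0.4499, 0.944 and 1.13 in day 7 grafts 1 to 5. Control 4 was lower than every graft, and the other 4 controls were above all of them. The change was -1.23 ± 0.70, adjusted p = 0.139 at day 3 and -1.81 ± 0.74, adjusted p = 0.0455 at day 7. The day 7 call ended in 18 of 27 alternatives, and without control 4 the changes were -2.03, adjusted p = 0.00051 and -2.65, adjusted p = 9.93e-05. Control 4 was also the control with the low B cell and T cell scores (3.74 and 1.68, where the other controls had 7.13 to 7.79 and 4.47 to 5.17). Dleu2, host of Mir15a and Mir16-1, was not called (0.16 ± 0.16, adjusted p = 0.393 and 0.12 ± 0.16, adjusted p = 0.529), nor was Snhg4, which holds Mir1949. Snhg20, which fell, holds Mir6516, and 2900076A07Rik, with Mir1839, fell at day 3 (-0.88 ± 0.21, adjusted p = 0.00246, not called on log2(TPM + 1) with adjusted p = 0.0634) and at day 7 (-0.50 ± 0.20, adjusted p = 0.0438), where the call was lost in 15 of 27 alternatives.

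Of 16 tested lncRNAs of macrophages and inflammation, 6 of them members, 9 rose and 4 fell at day 3, and 8 rose and 3 fell at day 7, with medians of 0.70 and 0.77, beside 30.1% and 30.3% of all tested genes at day 3 and 32.2% and 28.4% at day 7. The list also holds Neat1, Mir22hg, AI506816 and Snhg15, which are given under other headings here. Neat1, Mir22hg and AI506816 are among those that rose at day 3, and Morrbid passed the abundance rule through grafts alone. Nothing about macrophages is therefore read from these counts. Morrbid, which limits the pro-apoptotic gene Bcl2l11 in short-lived myeloid cells, was at 2.57, 1.74, 3.35, 2.69 and 4.31 CPM in controls 1 to 5, 14.8, 15.6, 13.9, 11.9 and 15.98 in day 3 grafts 1 to 5 and 20.7, 14.04, 21.3, 22.7 and 13.9 in day 7 grafts 1 to 5. The highest control was far below the lowest graft, and the rise was 5.02-fold at day 3 (2.33 ± 0.25, adjusted p = 3.24e-06) and 6.30-fold at day 7 (2.66 ± 0.25, adjusted p = 8.12e-07).

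AW112010, an interferon-inducible RNA of lymphocytes and macrophages, went the other way. It was at 56.4, 60.2, 82.5, 63.1 and 68.5 CPM in controls 1 to 5, 17.7, 18.04, 24.2, 11.9 and 21.4 in day 3 grafts 1 to 5 and 25.97, 19.9, 20.9, 18.8 and 17.1 in day 7 grafts 1 to 5. All grafts were below all controls, including control 4 (-1.86 ± 0.17, adjusted p = 7.88e-07 and -1.69 ± 0.17, adjusted p = 1.3e-06). Its fall was as large without control 4 (-1.90, adjusted p = 8.8e-07 and -1.76, adjusted p = 1.4e-06). Of the list's genes that are not members, the endotoxin-induced Ptgs2os2 rose (2.89 and 2.89, adjusted p = 0.000141 and 0.000133) and so did Pvt1 (0.80 and 0.91, adjusted p = 0.0171 and 0.00776). Mir155hg did not pass (-1.21 and -1.20, adjusted p = 0.13 at both times).

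Predicted genes with no assigned function had changes as large. Gm36161 was at 13.99, 13.4, 11.4, 13.5 and 27.1 CPM in controls 1 to 5, 121, 72.9, 101, 106 and 99.3 in day 3 grafts 1 to 5 and 92.1, 69.9, 66.6, 68.7 and 76.7 in day 7 grafts 1 to 5. Control 5 was the high control and was below every graft, and the rise was 6.54-fold at day 3 (2.71 ± 0.20, adjusted p = 2.05e-07) and 4.91-fold at day 7 (2.30 ± 0.20, adjusted p = 4.51e-07). AI427809, whose nearest coding start is that of the cholesterol exporter gene Abca1, 110337 bp away, was at 2.15, 1.57, 1.49, 1.35 and 3.65 CPM in controls 1 to 5, 22.7, 12.6, 15.2, 17.4 and 18.5 in day 3 grafts 1 to 5 and 19.5, 18.7, 20.4, 20.6 and 14.6 in day 7 grafts 1 to 5. It rose 8.83-fold (3.14 ± 0.28, adjusted p = 6.04e-07) and 9.72-fold (3.28 ± 0.27, adjusted p = 3.33e-07) without overlap, and Abca1 itself did not pass (0.28 and 0.36, adjusted p = 0.226 and 0.123). Gm10134 (2.08 ± 0.24, adjusted p = 5.17e-06 and 1.91 ± 0.24, adjusted p = 9.97e-06) and 1600010M07Rik (1.96 ± 0.32, adjusted p = 0.000103 and 2.05 ± 0.31, adjusted p = 6.15e-05) rose in the same way. The macrophage score was 5.59 to 6.49 in controls 1 to 4, 7.47 in control 5 and 8.27 to 9.36 in the grafts, and its part in these rises was not tested.

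**Figure D5:**
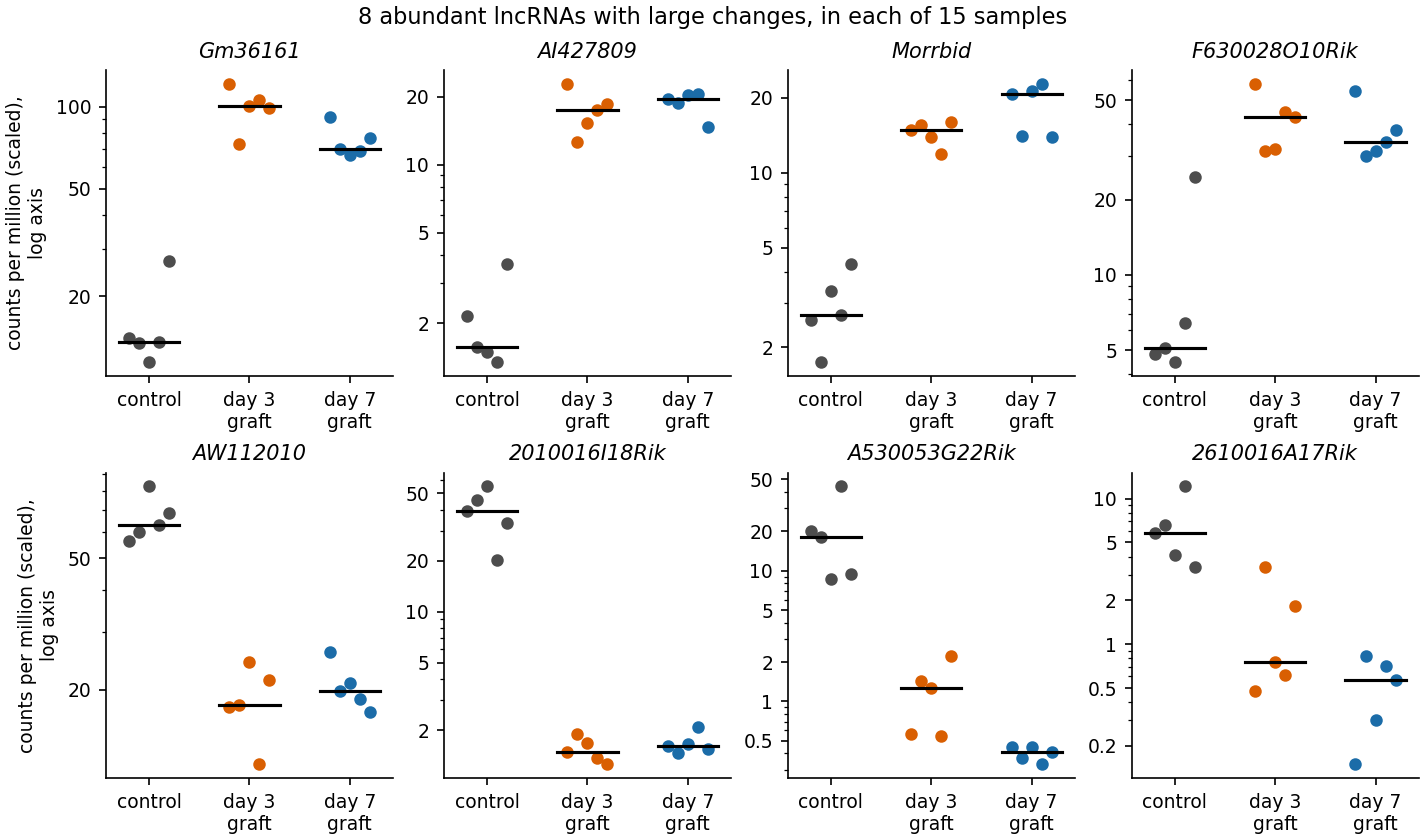
Scaled CPM (vertical log axes, each with its own range) of 8 members with large changes in the 5 samples of each group; points are samples and black lines are group medians. In the upper row all grafts lie above all controls, and in the lower row all grafts lie below all controls, except that 1 day 3 graft of 2610016A17Rik overlaps the lowest control.

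Gm49257 had the largest fitted rise of the tested members at day 3. It was at 0.0524, 0, 0, 0 and 0.332 CPM in controls 1 to 5, 5.52, 3.31, 2.74, 6.73 and 5.59 in day 3 grafts 1 to 5 and 1.65, 1.17, 1.38, 1.32 and 1.99 in day 7 grafts 1 to 5, with 3 controls listed at 0. Every graft lay above the controls and the day 3 grafts lay above the day 7 grafts. The fitted changes were 6.45 ± 0.66, adjusted p = 2.01e-06, 4.84 ± 0.69, adjusted p = 3.11e-05 and, between graft times, -1.61 ± 0.34, adjusted p = 0.0157. The changes against control depend on the offset that voom adds to low counts and are not bounds. The fall between graft times was not called on log2(TPM + 1) (adjusted p = 0.0571) or without day 7 graft 2 (adjusted p = 0.0534). The gene lies on the strand opposite to the collagen gene Col14a1.

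Of 10 tested lncRNAs in a list of other regulatory lncRNAs, 6 of them members, 5 rose and 2 fell at day 3. At day 7, 4 rose and 2 fell. Beside these, 30.1% of all tested genes rose and 30.3% fell at day 3, and 32.2% and 28.4% did at day 7. Dubr and Bvht, which are in the list, reached a group mean of 10 TPM in grafts alone, so nothing is read from these counts. Oip5os1 (Cyrano), which triggers the decay of the microRNA miR-7, was at 209, 219, 198, 233 and 183 CPM in controls 1 to 5, 163, 152, 148, 173 and 166 in day 3 grafts 1 to 5 and 179, 154, 149.8, 174 and 158 in day 7 grafts 1 to 5. Every graft was below every control, a fall of 1.3-fold (-0.38 ± 0.09, adjusted p = 0.00224) and 1.28-fold (-0.35 ± 0.09, adjusted p = 0.00362). On log2(TPM + 1) these changes were not called (-0.0027 and -0.06, adjusted p = 0.983 and 0.572). 2900097C17Rik (Norad), which binds Pumilio proteins, rose by small amounts (0.35 ± 0.11, adjusted p = 0.0126 and 0.35 ± 0.11, adjusted p = 0.0129), with control 4 within the range of the grafts. Tug1 was not called (-0.20 ± 0.09, adjusted p = 0.0765 and -0.12 ± 0.09, adjusted p = 0.276).

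Firre, an X-linked RNA of nuclear organisation, was at 48.7, 50.5, 37.3, 77.4 and 37.3 CPM in controls 1 to 5, 15.7, 38.2, 17.7, 15.3 and 22 in day 3 grafts 1 to 5 and 28.6, 35.2, 26.8, 33.2 and 24 in day 7 grafts 1 to 5. Day 3 graft 2 reached the level of the lowest controls and control 4 was the highest sample, and Firre fell at day 3 (-1.24 ± 0.25, adjusted p = 0.000638) and day 7 (-0.73 ± 0.24, adjusted p = 0.0166). On log2(TPM + 1) the day 7 change was -0.41, adjusted p = 0.139, and without control 4, day 3 graft 1 and day 7 graft 5 it was -0.54, adjusted p = 0.0529. Dubr, known from muscle cell differentiation, was at 11.6, 10.6, 10.2, 9.64 and 12.8 CPM in controls 1 to 5, 28.3, 36.6, 40.3, 45.6 and 42.2 in day 3 grafts 1 to 5 and 32.97, 21.6, 33.8, 22.7 and 53.4 in day 7 grafts 1 to 5 and rose without overlap (1.81 ± 0.25, adjusted p = 2.59e-05 and 1.52 ± 0.25, adjusted p = 0.000119). Bvht, known from heart cell fate, also rose (1.14 ± 0.25, adjusted p = 0.00121 and 1.37 ± 0.24, adjusted p = 0.000219), at a low 5.22 TPM in controls, 13.6 at day 3 and 17.3 at day 7. 1810026B05Rik (Chaserr), which lies upstream of Chd2 and limits it, fell (-0.71 ± 0.13, adjusted p = 0.00036 and -0.91 ± 0.13, adjusted p = 4.63e-05), and Chd2 was called lower as well (-0.53 and -0.48, adjusted p = 0.0181 and 0.0298). On log2(TPM + 1) the changes of 1810026B05Rik were 0.25 and 0.13 and not called (adjusted p = 0.304 and 0.61), so its direction depends on the unit.

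The ribosomal RNA-like Gm42418 was at 2393, 2178, 1496, 1568 and 2096 CPM in controls 1 to 5, 2718, 2188, 2706, 3105 and 4247 in day 3 grafts 1 to 5 and 2102, 4018, 3162, 3111 and 4071 in day 7 grafts 1 to 5. Groups overlapped at both times, and it rose at day 3 (0.61 ± 0.21, adjusted p = 0.0221) and day 7 (0.74 ± 0.21, adjusted p = 0.00765). The day 3 call ended without control 3, control 4 or day 3 graft 5 (adjusted p = 0.0549, 0.0534 and 0.0662). Of the 4 tested genes of the ribosomal RNA-like list, Gm42418 was the only one called by limma. Ifi30 rose (1.16 ± 0.31, adjusted p = 0.0047 and 1.04 ± 0.31, adjusted p = 0.00863), with control 4 the lowest sample at 24.5 CPM.

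The members that fell most were predicted genes. Gm44386, at chr6:86513891-86516273, was at 6.39, 5.63, 2.89, 9.01 and 2.98 CPM in controls 1 to 5, 0.08003, 0.178, 0.0844, 0.324 and 0.266 in day 3 grafts 1 to 5 and 0, 0.0667, 0.05999, 0.0944 and 0.0376 in day 7 grafts 1 to 5. All controls were far above all grafts, and the change was -4.74 ± 0.54, adjusted p = 5.22e-06 at day 3 and -6.35 ± 0.67, adjusted p = 2.17e-06 at day 7, where counts near 0 make the size depend on the offset. A530053G22Rik, at chr6:60279043-60403707, was at 20.2, 18, 8.68, 44.2 and 9.47 CPM in controls 1 to 5, 0.5602, 1.42, 1.27, 0.5399 and 2.25 in day 3 grafts 1 to 5 and 0.449, 0.367, 0.4499, 0.331 and 0.414 in day 7 grafts 1 to 5. It fell 15.9-fold (-3.99 ± 0.60, adjusted p = 5.43e-05) and 40.2-fold (-5.33 ± 0.73, adjusted p = 2.4e-05), and control 4, the sample with the highest adipocyte score (10.6), held the highest value.

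2610016A17Rik, which starts 158 bp from Dmrt2 on the other strand, was at 5.82, 6.62, 4.07, 12.1 and 3.36 CPM in controls 1 to 5, 0.4802, 3.38, 0.759, 0.612 and 1.83 in day 3 grafts 1 to 5 and 0.1497, 0.834, 0.2999, 0.708 and 0.564 in day 7 grafts 1 to 5. Control 4 was again the highest and only day 3 graft 2 reached the lowest control (-2.40 ± 0.51, adjusted p = 0.00103 and -3.70 ± 0.61, adjusted p = 0.000113), and Dmrt2 fell with it (-1.46 and -2.41, adjusted p = 0.00211 and 9.8e-05). 2010016I18Rik, at chr3:106481982-106485913 and antisense to Dennd2d, was at 39.2, 45.5, 54.9, 20.3 and 33.2 CPM in controls 1 to 5, 1.48, 1.89, 1.69, 1.37 and 1.26 in day 3 grafts 1 to 5 and 1.61, 1.47, 1.65, 2.08 and 1.54 in day 7 grafts 1 to 5. Here control 4 was the lowest control. The fall was 23.7-fold (-4.57 ± 0.35, adjusted p = 2.4e-07) and 21.9-fold (-4.46 ± 0.34, adjusted p = 1.76e-07), and Dennd2d fell as well (-3.60 and -3.47, adjusted p = 2.83e-07 and 2.18e-07). The kit marks strand, per the labels' protocols, but no source used here says whether the counting used strand, so reads of an antisense pair may not be told apart.

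Gm15675 (-2.17 ± 0.38, adjusted p = 0.000215 and -2.69 ± 0.41, adjusted p = 5.51e-05), Gm43305 (-2.90 ± 0.47, adjusted p = 0.000103 and -1.67 ± 0.41, adjusted p = 0.00252), AU020206 (-1.51 ± 0.30, adjusted p = 0.000593 and -0.95 ± 0.30, adjusted p = 0.0121) and AI480526 (-1.69 ± 0.17, adjusted p = 1.82e-06 and -1.20 ± 0.16, adjusted p = 1.63e-05) also fell. The day 7 call of AU020206 ended with library totals (-0.87, adjusted p = 0.0574) and on log2(TPM + 1) (-0.49, adjusted p = 0.277). Gm43305 was at 88.2, 87.2, 77.5, 23.5 and 165 CPM in controls 1 to 5, 13.9, 13.2, 10.6, 10.1 and 5.02 in day 3 grafts 1 to 5 and 28.6, 15.9, 24.9, 18.8 and 33.3 in day 7 grafts 1 to 5. Control 4 was within the day 7 range, and the other controls were above every graft. In A530053G22Rik, 2610016A17Rik and Gm44386 control 4 was the highest control, whereas in Gm43305, AU020206, Gm15675 and 2010016I18Rik it was the lowest. Control 4 had the highest adipocyte score and the lowest B cell score of the controls, and the part of either cell type in these falls was not tested.

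Position offered a view that the abundance rule did not use. The nearest protein-coding start lay within 1 kb for 23 members and over 10 kb away for 54. Across 22 members with a tested neighbour within 1 kb, the changes of the member and the neighbour had a Pearson correlation of 0.38 at day 3 and 0.54 at day 7, and across 41 with a neighbour over 10 kb away 0.13 and 0.15. By Spearman's rank correlation the values were 0.39 and 0.33 within 1 kb and 0.27 and 0.34 over 10 kb, so at day 7 the ranks did not separate near from far neighbours. These are descriptions across genes, which share libraries and are not independent.

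In 13 pairs the member and its neighbour ran in opposite directions from starts within 1 kb of each other (Pearson correlations of 0.57 and 0.72, Spearman 0.58 and 0.51). Between graft times the values were 0.48 by Pearson and -0.07 by Spearman. At day 7, 2610016A17Rik and Dmrt2 had the lowest changes on both sides (-3.70 and -2.41), and a Pearson correlation weighs such a far pair heavily. At day 7 both partners were called higher in 2 pairs (Snhg1 with Slc3a2 and Brip1os with Brip1), both lower in 2 (2610016A17Rik with Dmrt2 and 5031425E22Rik with Kmt2e), and opposite in 2. In both opposite pairs the lncRNA fell and the neighbour rose. Gt(ROSA)26Sor, the RNA of a locus widely used to place transgenes, changed by -0.97 ± 0.33, adjusted p = 0.0197 while Setd5 changed by 0.31 (adjusted p = 0.00489). The call of Gt(ROSA)26Sor ended in 5 of 27 alternatives, with -0.21 (adjusted p = 0.508) on log2(TPM + 1), -0.79, adjusted p = 0.0633 without day 7 graft 3 and -0.81, adjusted p = 0.0532 without day 7 graft 5. 2310010J17Rik changed by -1.63 ± 0.36, adjusted p = 0.00131 while Picalm, an endocytosis gene, changed by 1.23 (adjusted p = 2.2e-05). In the other 7 pairs at most 1 partner was called.

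A coding gene on the other strand overlapped 21 members (23.6%) and 447 of the other tested lncRNAs (46.6%), and the median span was 6550 and 7072 bp. Overlap with a coding gene on the same strand was found in 11 tested members, where the split of reads is uncertain. CAAA01066123.1, which lies within Rps6ka4, rose (1.40 ± 0.16, adjusted p = 5.37e-06 and 1.03 ± 0.16, adjusted p = 8.76e-05) and so did Rps6ka4 (1.18 and 1.06, adjusted p = 1.66e-05 and 3.98e-05).

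A TPM threshold treats short transcripts in its own way. The number of counts behind 1 TPM had a median of 15.8 over the members, was 101 in Oip5os1 and was below 1 in Mir142hg (0.813) and Gm38079 (0.0361). Gm10076, at 791 TPM, had 2.71 counts per TPM and rose (0.41 ± 0.12, adjusted p = 0.0106 and 0.59 ± 0.13, adjusted p = 0.000972). Gm38079, of 154 bp, entered at 25.4 TPM with 15 counts in all samples together and at most 5 in one. It was at 0 in all 5 controls, 2 day 3 grafts and 2 day 7 grafts, and it was not tested. Near the threshold, 12 members had a mean of 10 to 11 TPM, from Dancr (10.9) down to 4933439C10Rik (10.1). The rows just below it, at 9.93 to 9.25 TPM, were BE692007, A730063M14Rik, Gm15551, 9630013D21Rik, 2210408F21Rik, Gm4013, BC002059, Snhg16, Gm16536 and Lncbate1.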

How the data were processed

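Polyadenylated RNA of 15 samples was sequenced as paired 151 bp reads from a stranded kit, per the labels' protocols. Cutadapt 2.8, STAR 2.7.1a, RSEM 1.3.1 and mm10 are named in the submitters' processing notes. The annotation release and the strand setting of the counting are not given in the sources used here. The authors deposited a matrix with estimated counts, TPM and RPKM per gene and sample, per the file headers. TPM served for the abundance rule and levels between genes, and RPKM was not used.

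Counts were scaled by trimmed means of log ratios (30% and 5% trims, factors 0.746 to 1.14), and 16051 genes with at least 0.3894 CPM in 5 samples and 15 counts in all were kept. The count columns are written with digit separators, which were removed on reading. Limma-voom (limma 3.58.1 in R 4.3.3) was fitted to 3 group means. P-values were adjusted after Benjamini and Hochberg over every tested gene, with calls below 0.05. Folds are printed as sizes from the fitted log2 change, and changes are given as log2 ± standard error.

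The members, lists and tests were chosen with earlier results of these data known. The rule for naming took the 15 members of highest mean TPM, the 6 highest and 6 lowest called changes in each comparison, and members of the class lists, 51 in all. Any of the other 38 members, and neighbouring genes outside the lists, were named after their values were seen. Other scalings, filters, units, weights, a replicate block and leaving out samples were tried as alternatives.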

Additional observations from a re-analysis of the deposited data

Results flagged for a closer look

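Of 267 groups of 5 samples, 23 had 1 sample far from the others by Dixon's criterion at 95%, where chance flags about 1 in 20 groups. Day 7 graft 5 was the sample that stood apart most often. It was far above the other day 7 grafts for Gas5 (177 CPM, nearest other 138), 2410006H16Rik (26.9 CPM, nearest other 14.3), Snhg12 (26.3 CPM, nearest other 17.1), Snhg8 (10.2 CPM, nearest other 6.51), Gm20186 (22 CPM, nearest other 8.25), Gm12840 (47.6 CPM, nearest other 7.84), Epb41l4aos (4.06 CPM, nearest other 2.28) and 2310010J17Rik (1.09 CPM, nearest other 0.449), and far below them for Gm20559 (24.4 CPM, nearest other 54.2) and 3110056K07Rik (4.06 CPM, nearest other 5.84). Control 4 was far above the other controls for Snhg18 (26.6 CPM, nearest other 14.1), 2310010J17Rik (2.44 CPM, nearest other 1.22) and Gm46430 (22.5 CPM, nearest other 18). Control 4 was far below the other controls for Snhg17 (13.3 CPM, nearest other 30.0). Control 5 was far above the other controls for Gm36161 (27.1 CPM, nearest other 13.99), Gm12840 (11.04 CPM, nearest other 3.75), Gm49257 (0.332 CPM, nearest other 0.0524) and F630028O10Rik (24.6 CPM, nearest other 6.44). Day 3 graft 1 held the highest H19 value of its group, 227 CPM, and the nearest other was 104. Day 3 graft 2 held the highest Snhg3 value of its group, 11.2 CPM, and the nearest other was 8.40. Day 3 graft 1 held the lowest CAAA01066123.1 value of its group, 19.2 CPM, and the nearest other was 24.4. Day 3 graft 2 held the highest Snhg17 value of its group, 40.6 CPM, and the nearest other was 27.1. Day 3 graft 4 held the lowest Snhg4 value of its group, 4.07 CPM, and the nearest other was 7.76. The scores of cell type markers in control 4 and control 5 stand beside the genes in the report, and their part in these values was not tested.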

How the results depend on the processing

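Of 264 member changes 124 were called, and 87 of those calls held in all 27 alternatives. In at least 1 alternative 35 calls were lost with the sign kept, and 4 called changes had the opposite sign. The day 7 changes of Malat1 and Rab10os are in both of these counts. With log2(TPM + 1) and log2(TPM + 0.1) in place of scaled counts, Malat1 was at 0.39 and 0.39 at day 3 and at 0.0762 and 0.0763 at day 7, 1810026B05Rik at 0.25 and 0.26 at day 3 and 0.13 and 0.13 at day 7, 5530601H04Rik at 0.45 and 0.49 at day 3, and Rab10os at 0.12 and 0.13 at day 7, each opposite in sign to the scaled counts. On both TPM scales 17 members fell at day 3, 18 at day 7 and 1 between graft times. With a 2-fold minimum 16, 17 and 1 fell. From day 3 to day 7, sample quality weights gave 15 members higher and 11 lower, the 2 groups alone gave 4 higher, and leaving out control 4, day 3 graft 1 and day 7 graft 5 together, chosen after seeing the data, gave 5 higher and 11 lower. Leaving out 1 sample at a time gave 26 to 31 higher and 28 to 34 lower at day 3, 29 to 32 and 28 to 33 at day 7, and 0 to 3 and 0 to 5 between graft times. The cause of these differences was not tested. With a replicate block 28 rose and 30 fell at day 3, 31 and 32 at day 7, and 0 and 2 between graft times. The day 3 calls of Snhg5, 4933439C10Rik and Gt(ROSA)26Sor ended with that block. Same-numbered samples correlated at -0.183 to 0.341. Correlations of this size cannot tell whether such samples share an animal or a batch, and the labels do not say. Few counts per TPM limit the short members.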
